A study of Rattus norvegicus with 16 samples.

Results

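Mitochondrial ribosomal protein genes were taken as all rat genes whose symbol begins with Mrpl or Mrps followed by a digit, which gave 69 genes on the arrays out of 20375 genes tested. For a gene to be tested, 6 or more of its 32 channel readings had to lie clearly over background, and all 69 members reached 32 of 32. The annotation spells 3 of the symbols in lower case (mrpl9, mrpl11 and mrpl24). Mrpl28, Mrpl33, Mrpl39, Mrpl43, Mrps6, Mrps7, Mrps10, Mrps28 and Mrps36 were not analysed here under those symbols.

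The samples were primary hepatocytes, liver cells taken into culture, from male Sprague Dawley rats. Starting 48 hours after plating, cultures received either SQ1 at 100 µM or pravastatin at 30 µM for 48 hours, and untreated cultures were kept alongside. Each of 16 two-colour arrays held RNA from a treated and an untreated culture, with 8 arrays per drug and 4 in each dye orientation. The values below are log2 ratios of treated over untreated signal, called at an adjusted p under 0.05 in limma with Benjamini-Hochberg adjustment over all genes, n = 8 arrays per drug unless stated. Same-numbered arrays of both drugs carry the same control number in their file names. The comparisons with SQ1 and with pravastatin may therefore share untreated RNA, which the labels do not state, and are given side by side. Nothing in the labels says whether the cultures came from separate animals, so the p-values measure only the spread between these arrays, which may be technical. Drug names follow the sample labels and their scanner files. The deposited value table attaches each drug name to the other drug's arrays, and which assignment is right cannot be settled from the files.

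Mitochondria carry their own ribosome, which translates the few proteins encoded by mitochondrial DNA, all of them subunits of the respiratory chain and ATP synthase. Its ribosomal RNAs come from mitochondrial DNA, while every one of its proteins is encoded in the nucleus, made in the cytosol and imported. Part of these proteins have bacterial counterparts and the rest were gained in mitochondria. Hepatocytes are rich in mitochondria. Pravastatin inhibits HMG-CoA reductase, the rate-limiting enzyme of cholesterol synthesis, and SQ1 is named in the labels without further description.

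Mitochondrial ribosomal protein genes moved in both directions with both drugs, by small amounts apart from Mrps27. With SQ1, 26 members rose and 21 fell, and 22 were not called, where 63.9% of all genes tested were called (32.7% higher and 31.2% lower). With pravastatin, 17 rose and 12 fell, and 40 were not called, where 39.1% of all genes were called (19.4% higher and 19.7% lower). The median change of the 69 members was 0.02 with SQ1, against 0.01 over all genes, and 0.02 with pravastatin, against 0.00 over all genes. A change of at least 1.5-fold was called in 1 member with each drug, Mrps27, where 7.49% of all genes reached it with SQ1 and 1.96% with pravastatin. In SQ1 minus pravastatin 0 members reached it, where 4.21% of all genes did. The plot of all members by class shows Mrps27 apart from the rest and the other members on both sides of 0.

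The split into higher and lower members depended on how the arrays were scaled. Centring each array on its median in place of loess gave 39 higher and 3 lower with SQ1 (32.7% and 25.4% of all genes), and 18 higher and 3 lower with pravastatin (16.7% and 15.6%). Agilent's processed signals gave 31 higher and 15 lower with SQ1 (35.2% and 30.7% of all genes), and 18 higher and 15 lower with pravastatin (22.2% and 21.5%). Loess followed by scaling all arrays to 1 spread gave 13 higher and 6 lower with SQ1 (21.9% and 21.8% of all genes), and 10 higher and 11 lower with pravastatin (18.9% and 20.3%). The median member probe was brighter than 83.2% of the probes tested. Under median centring the members had a median change of 0.13 with SQ1 and 0.07 with pravastatin, against 0.10 and 0.05 for the 2481 genes whose probes lay between the members' quartiles of brightness. Changes are therefore given relative to genes of like brightness, as loess sets them. Turns of direction under another scaling were looked up only for the members chosen for naming, and other members turned too. With SQ1 the lower quartile of the 69 members was -0.07 under loess and 0.03 under median centring.

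**Figure D1:**
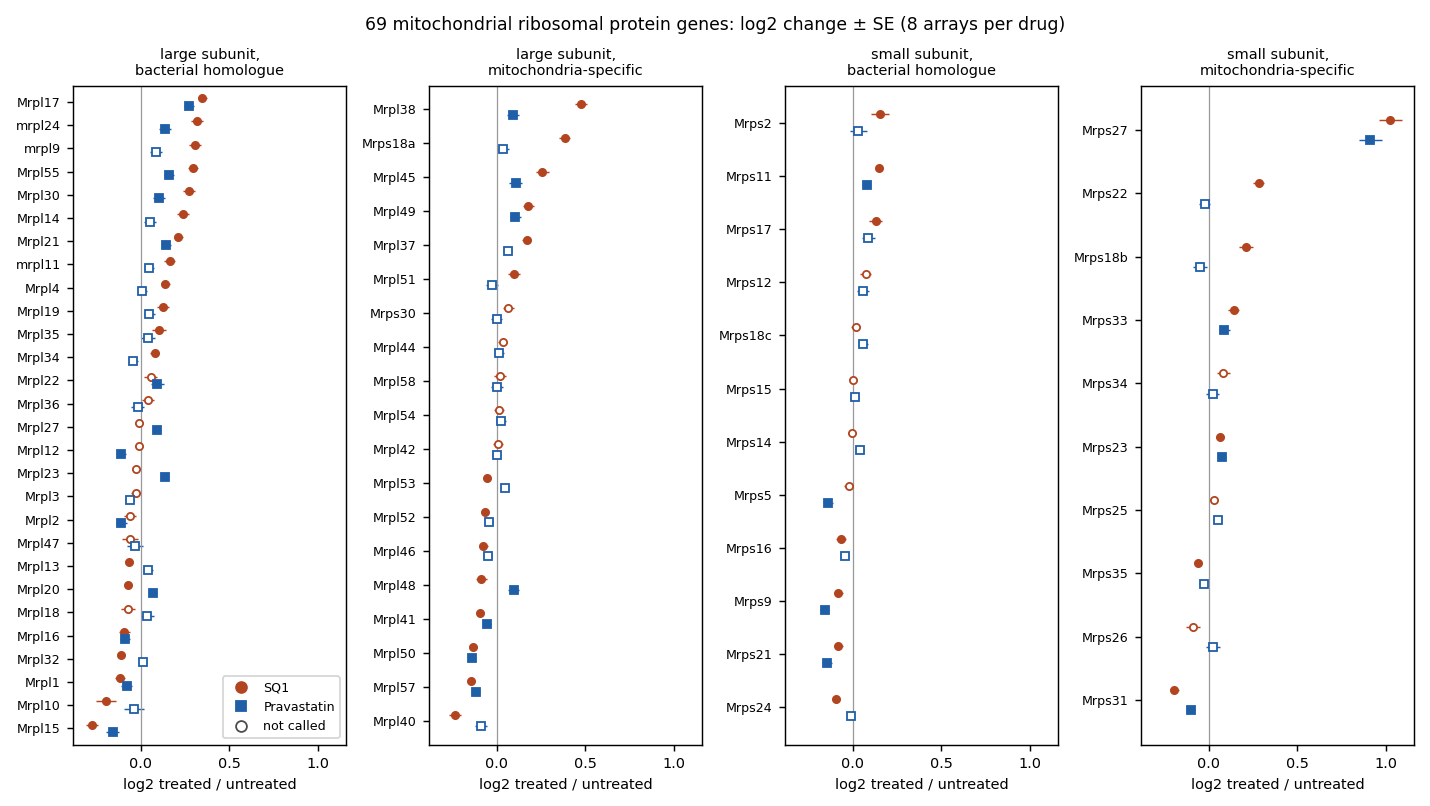
Log2 ratio of treated over untreated signal (x axis) for the 69 mitochondrial ribosomal protein genes (y axis), in 4 panels by subunit and by class, bacterial homologue or mitochondria-specific. Mrps18a and Mrps18b were classed as mitochondria-specific. Circles give SQ1 and squares pravastatin with the SE (n = 8 arrays each), and open symbols were not called; Mrps27 lies near 1 with both drugs and all other members lie between -0.27 and 0.48.

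The 22 small subunit genes held the largest change of the set. They gave 8 higher and 6 lower with SQ1 (12 and 1 under median centring), and 4 higher and 4 lower with pravastatin (6 and 2). Of all genes, 32.7% were higher and 31.2% lower with SQ1 (32.7% and 25.4% under median centring). With pravastatin 19.4% of all genes were higher and 19.7% lower (16.7% and 15.6%). Mrps27, a pentatricopeptide repeat protein of the small subunit that has no bacterial counterpart, was the highest of the 69 members on each of the 16 arrays. On the SQ1 arrays its normalised log2 signal was 10.702 at the lowest, 10.76 at the median and 10.83 at the highest in SQ1-treated cells, against 9.63, 9.73 and 9.89 in untreated cells. On the pravastatin arrays it was 10.49, 10.73 and 10.87 in pravastatin-treated cells, against 9.57, 9.86 and 10.04 in untreated cells. Treated and untreated signals did not overlap with either drug. Mrps27 rose 2.04-fold with SQ1 (log2 change 1.03 ± 0.07, SE, adjusted p = 1.7e-10) and 1.88-fold with pravastatin (0.91 ± 0.07, adjusted p = 4.9e-09). Single arrays ran between 0.82 and 1.11 with SQ1 and between 0.46 and 1.29 with pravastatin. Within the first scan day the change was 0.98 with SQ1 and 0.71 with pravastatin, and within the second day it was 1.07 and 1.12. The difference between the drugs, 0.11 ± 0.09, was not called (adjusted p = 0.37).

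Promoters are shown for 3 members that rose with SQ1, for a member that fell, and for a member that shares its promoter region with another member. Sequences are from RefSeq on build GRCr8 and span 250 bases before to 50 bases after the annotated start of transcription, on the strand of the gene. Capitals mark exact matches to core motifs of transcription factors, the first 3 of them known to act at genes of mitochondrial proteins: CCGGAAG for the ETS family, AAGATGG for YY1, GCATGCG for NRF1, CACGTG for E-box factors and TCACCCC for the core of a sterol element, searched on both strands. The Mrps27 promoter, chr2:32473954-32474253 on the plus strand, held an ETS, a YY1 and a sterol core match.
Mrps27: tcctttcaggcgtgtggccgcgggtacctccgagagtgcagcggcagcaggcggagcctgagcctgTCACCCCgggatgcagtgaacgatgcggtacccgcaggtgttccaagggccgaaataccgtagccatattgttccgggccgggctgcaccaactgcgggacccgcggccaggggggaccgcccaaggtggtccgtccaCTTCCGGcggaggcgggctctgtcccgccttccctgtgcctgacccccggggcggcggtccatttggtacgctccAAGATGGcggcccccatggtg
The Mrpl17 promoter, chr1:169575650-169575949 on the minus strand, held NRF1 matches in 2 separate stretches.
Mrpl17: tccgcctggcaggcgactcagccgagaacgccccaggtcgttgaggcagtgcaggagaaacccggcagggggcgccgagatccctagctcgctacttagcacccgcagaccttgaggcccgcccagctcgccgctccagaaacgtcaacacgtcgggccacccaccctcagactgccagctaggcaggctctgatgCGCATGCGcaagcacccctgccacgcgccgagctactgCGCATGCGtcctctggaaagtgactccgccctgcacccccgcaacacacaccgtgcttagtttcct
The Mrps18a promoter, chr9:22367331-22367630 on the minus strand, held an ETS and a YY1 match.
Mrps18a: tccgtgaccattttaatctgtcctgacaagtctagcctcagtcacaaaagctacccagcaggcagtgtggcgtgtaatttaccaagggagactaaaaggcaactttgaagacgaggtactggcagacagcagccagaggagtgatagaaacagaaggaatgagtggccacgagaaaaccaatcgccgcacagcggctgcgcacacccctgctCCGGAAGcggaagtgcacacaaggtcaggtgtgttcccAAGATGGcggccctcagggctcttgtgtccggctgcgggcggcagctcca
The Mrpl40 promoter, chr11:95637501-95637800 on the plus strand, held none of these letters.
Mrpl40: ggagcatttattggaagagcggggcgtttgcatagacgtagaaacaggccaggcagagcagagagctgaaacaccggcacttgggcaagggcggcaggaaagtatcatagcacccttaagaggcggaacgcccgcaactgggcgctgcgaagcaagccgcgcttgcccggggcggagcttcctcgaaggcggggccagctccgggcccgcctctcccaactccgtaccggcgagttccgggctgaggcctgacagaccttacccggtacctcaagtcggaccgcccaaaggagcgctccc
The Mrpl46 promoter, chr1:142116981-142117280 on the minus strand, held a YY1 match and faces Mrps11 across 234 bases.
Mrpl46: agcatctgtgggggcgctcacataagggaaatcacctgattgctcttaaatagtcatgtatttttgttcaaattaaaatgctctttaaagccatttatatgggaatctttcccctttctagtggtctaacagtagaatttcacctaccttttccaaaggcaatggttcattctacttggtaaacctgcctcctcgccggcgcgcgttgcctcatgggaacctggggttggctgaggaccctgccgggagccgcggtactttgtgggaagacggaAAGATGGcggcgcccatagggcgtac

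Of the 69 members, 57 had a promoter in the RefSeq table. The ETS letters occurred in 19 of these 57 (33.3%), against 9.22% of all 27457 promoters. The YY1 letters occurred in 13 (22.8%, against 7.30%) and the NRF1 letters in 6 (10.5%, against 3.54%). The E-box letters occurred in 7 (12.3%, against 6.65%). The sterol core letters occurred in 3 (5.26%, against 4.59%), the promoters of Mrpl14, Mrpl55 and Mrps27. Members with ETS letters were found on both sides: Mrps27 and Mrps18a rose with SQ1, while Mrps31 and Mrps21 fell. The brighter probe of Mrps21 measured -0.08 with SQ1, turning to 0.04 without a call under median centring, and its other probe -0.31. The NRF1 letters occurred in Mrpl17, which rose with SQ1, and in Mrpl32. The YY1 letters occurred in Mrps27, which rose, and in Mrpl50. With SQ1, Mrpl32 and Mrpl50 were called lower under loess, though not under median centring. The matches describe the letters only.

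Mrps27 starts 91 bases from Ptcd2, which is transcribed away from it and encodes another pentatricopeptide repeat protein, one that in the mouse is needed for processing of cytochrome b RNA. Ptcd2 signal on the SQ1 arrays was 9.82, 10.01 and 10.13 in SQ1-treated cells (lowest, median, highest), against 9.49, 9.60 and 9.68 in untreated cells. On the pravastatin arrays it was 9.78, 9.85 and 10.09 in pravastatin-treated cells, against 9.35, 9.58 and 9.77 in untreated cells. The groups did not overlap with either drug. Ptcd2 rose by 0.40 ± 0.04 with SQ1 (adjusted p = 1.6e-07) and by 0.31 ± 0.04 with pravastatin (adjusted p = 1.1e-05).

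Other members with a neighbour transcribed away from them within 1000 bases did not all change as their neighbour did. Mrps11 and Mrpl46, a small and a large subunit gene, face each other across 234 bases: with SQ1 Mrps11 rose by 0.15 and Mrpl46 changed by -0.07 (adjusted p = 9.8e-06 and 0.017), the Mrpl46 value not being called lower under median centring or within either scan day (adjusted p = 0.11 and 0.074), and with pravastatin the values were 0.08 and -0.05 (adjusted p = 0.0084 and 0.14). Mrps18b, a small subunit protein, rose by 0.21 with SQ1, while Ppp1r10 on its other side, a regulatory subunit of protein phosphatase 1, fell by 0.55. Mrpl32, a large subunit protein with a bacterial counterpart, changed by -0.11 with SQ1 and by 0.01 without a call under median centring, while its neighbour Psma2, a proteasome subunit, rose by 0.09. Mrpl40, whose gene lies beside the histone chaperone gene Hira, fell by 0.24, and Hira measured 0.43 ± 0.18 with single arrays from -0.35 to 1.26. In mouse and human Mrps12 shares its promoter region with Sars2, the mitochondrial seryl-tRNA synthetase gene: with SQ1 Sars2 rose by 0.15 ± 0.04 (adjusted p = 0.0024) and Mrps12 measured 0.07 ± 0.03 (adjusted p = 0.062). With pravastatin Sars2 measured -0.04 and Mrps12 0.06, and neither was called. With pravastatin Mrpl2 and its neighbour Klc4 were both called lower, at -0.11 and -0.17. With SQ1 Mrpl41 measured -0.10, with no call under median centring, while its neighbour Pnpla7 rose by 1.15. Every test of the pairs was made gene by gene, and pairs were not tested against each other.

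**Figure D2:**
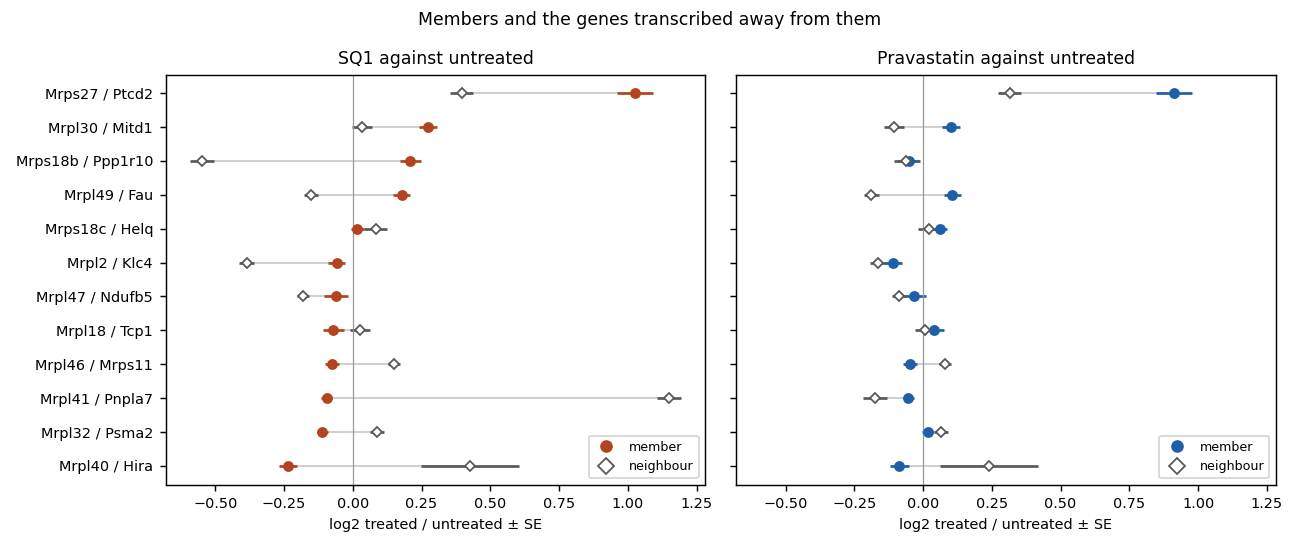
Log2 ratio of treated over untreated signal with its SE (x axis, n = 8 arrays per drug) for 12 members and the neighbour transcribed away from each (y axis), with SQ1 on the left and pravastatin on the right. Filled circles are the members and open diamonds the neighbours; for Mrps27 and Ptcd2 both symbols lie above 0 in both panels, and for Mrps18b and Ppp1r10 they lie on opposite sides with SQ1.

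Mrps22 and Mrps18b were among the other small subunit genes called with SQ1. Mrps22, a protein without a bacterial counterpart, had a log2 signal of 12.35, 12.44 and 12.49 in SQ1-treated cells, against 11.998, 12.13 and 12.30 in untreated cells. These groups did not overlap, and Mrps22 rose by 0.28 ± 0.03 (adjusted p = 2.7e-07). With pravastatin its arrays ran from -0.11 to 0.19 and it was not called (-0.02 ± 0.03). Mrps18b belongs to a family of mammalian counterparts of a single bacterial protein, but was classed here as mitochondria-specific. With pravastatin Mrps18b measured -0.05 ± 0.04.

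Mrps31 fell with both drugs, by 0.20 ± 0.03 with SQ1 (adjusted p = 2.2e-06) and by 0.10 ± 0.03 with pravastatin (adjusted p = 0.0041), the pravastatin value being -0.06 without a call under median centring. It was below 0 on all 8 arrays of each drug, from -0.37 to -0.07 with SQ1 and from -0.21 to -0.03 with pravastatin. Mrps31 is a small subunit protein without a bacterial counterpart.

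Among the 6 members that fell most with pravastatin, 3 were of the small subunit and 3, Mrpl15, Mrpl50 and Mrpl57, of the large. Mrps9 fell by 0.16 ± 0.03 (adjusted p = 9.0e-05), Mrps5 by 0.14 ± 0.03 (adjusted p = 0.00037) and Mrps21 by 0.14 ± 0.03 (adjusted p = 0.00022), the last of which was not called under median centring (-0.09). The other probe of Mrps21 fell further, by 0.31 with SQ1 and by 0.25 with pravastatin. Mrps5 lies near the entry of the messenger RNA. Its signal was 10.98, 11.04 and 11.09 in pravastatin-treated cells, against 11.06, 11.16 and 11.33 in untreated cells, with a small overlap. With SQ1, Mrps5 measured -0.02 ± 0.03 and was not called.

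Mrps12, the decoding-centre protein, was not called with either drug. Its arrays ran from -0.08 to 0.24 with SQ1 and from -0.05 to 0.16 with pravastatin. Under median centring it measured 0.16 with SQ1 and was called.

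**Figure D3:**
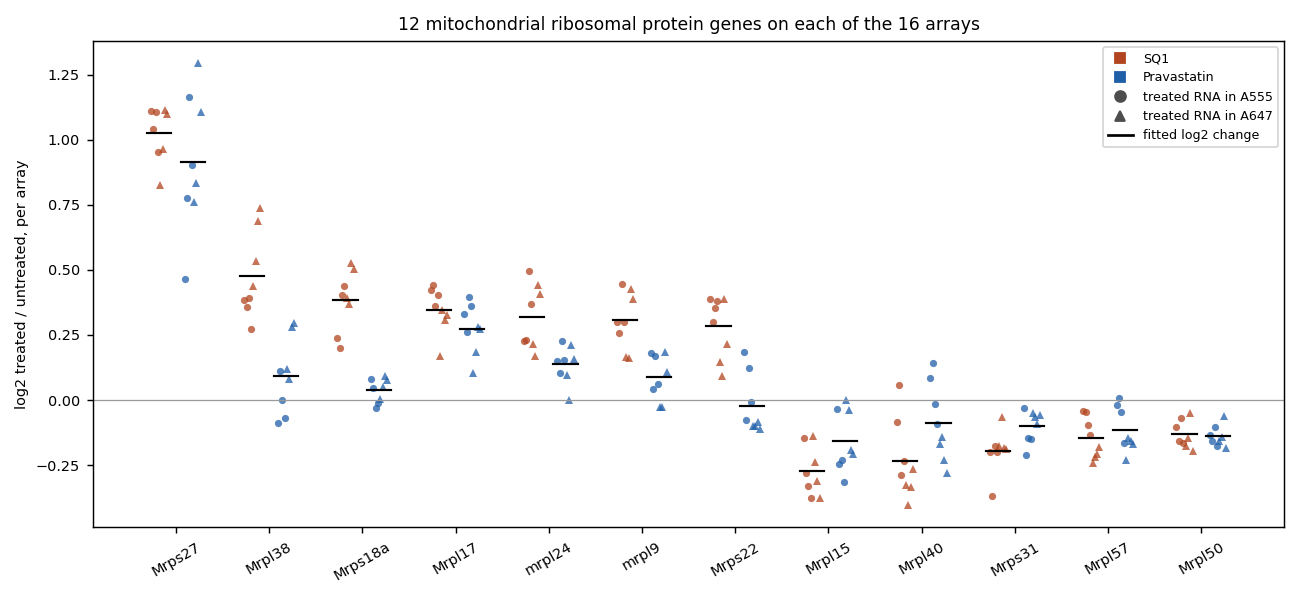
Log2 ratio of treated over untreated signal on each of the 16 arrays (y axis) for 12 members (x axis), with SQ1 to the left of pravastatin within each member. Circles and triangles mark the dye of the treated RNA and the black bar the fitted change; all SQ1 arrays lie above 0 for the 7 genes on the left, and all arrays of both drugs lie below 0 for Mrps31 and Mrpl50.

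The 47 large subunit genes gave 18 higher and 15 lower with SQ1, beside 32.7% and 31.2% of all genes. With pravastatin they gave 13 higher and 8 lower, beside 19.4% and 19.7% of all genes. Median centring gave 27 and 2 with SQ1 (32.7% and 25.4% of all genes), and 12 and 1 with pravastatin (16.7% and 15.6%). The 28 classed as having a bacterial counterpart gave 12 higher and 7 lower with SQ1 (16 and 1 under median centring). The 19 classed as mitochondria-specific, Mrps18a among them, gave 6 and 8 (11 and 1). Mrpl38, a protein of the central protuberance, had a log2 signal of 11.64, 11.73 and 11.93 in SQ1-treated cells, against 11.10, 11.24 and 11.46 in untreated cells. The groups did not overlap. Mrpl38 rose 1.39-fold with SQ1 (0.48 ± 0.03, adjusted p = 1.0e-09). With pravastatin it measured 0.09 ± 0.03 (adjusted p = 0.043), a call that was lost under median centring, with the slide as a block and without any 1 of 5 pravastatin or 2 SQ1 arrays, among other settings.

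Mrps18a, despite its name a large subunit protein, had a log2 signal of 12.94, 13.21 and 13.35 in SQ1-treated cells, against 12.55, 12.81 and 12.93 in untreated cells. The groups did not overlap, and Mrps18a rose by 0.38 ± 0.03 (adjusted p = 2.0e-09). With pravastatin it measured 0.04 ± 0.03 and was not called.

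Large subunit genes of the polypeptide exit tunnel, where the new protein leaves the ribosome, numbered 7. Of these, 3 rose with SQ1 and 5 with pravastatin, beside 32.7% and 19.4% of all genes, with no test of the list, and none fell under loess, median centring, Agilent's processed signals or scaling to 1 spread. Mrpl17 had a signal of 15.66, 15.72 and 15.83 in SQ1-treated cells, against 15.31, 15.39 and 15.51 in untreated cells, without overlap. It was 15.28, 15.63 and 15.76 in pravastatin-treated cells, against 15.10, 15.36 and 15.41 in untreated cells, with overlap, though every single array was above 0. Mrpl17 rose by 0.35 ± 0.03 with SQ1 (adjusted p = 1.3e-09) and by 0.27 ± 0.03 with pravastatin (adjusted p = 1.7e-07), and its other probe rose with both drugs too (0.39 and 0.20). The tunnel protein mrpl24 rose by 0.32 ± 0.03 with SQ1 and by 0.14 ± 0.03 with pravastatin (adjusted p = 2.9e-07 and 0.0046). Mrpl23, also at the tunnel exit, rose by 0.14 ± 0.03 with pravastatin on 8 of 8 arrays (adjusted p = 0.00033) and measured -0.02 ± 0.03 with SQ1.

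Among the other large subunit proteins with bacterial counterparts, mrpl9 and Mrpl55 rose most with SQ1, and they were not the only ones called higher. The gene mrpl9 had a signal of 13.79, 13.83 and 13.90 in SQ1-treated cells, against 13.37, 13.54 and 13.67 in untreated cells, without overlap. It rose by 0.31 ± 0.03 (adjusted p = 3.8e-07), and with pravastatin it measured 0.09 ± 0.03 (adjusted p = 0.055), which with the replicate number as a block was called. Mrpl55 rose by 0.29 ± 0.03 with SQ1 and by 0.16 ± 0.03 with pravastatin (adjusted p = 5.5e-08 and 0.00024). Mrpl21 rose by 0.21 ± 0.03 and by 0.15 ± 0.03 (adjusted p = 7.7e-07 and 0.00017). Mrpl55 and Mrpl21 were above 0 on 8 of 8 arrays of each drug.

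Mrpl15, the counterpart of a bacterial protein deep in the large subunit, had the lowest value with both drugs by the brightest probe of each member under loess, with pravastatin close to Mrps9 (-0.16 each). Its log2 signal was 12.64, 12.73 and 12.88 in SQ1-treated cells, against 12.91, 13.03 and 13.09 in untreated cells, without overlap. It fell by 0.27 ± 0.04 with SQ1 (adjusted p = 2.4e-06) and by 0.16 ± 0.04 with pravastatin (adjusted p = 0.0019), and the pravastatin value was not called within the first scan day (-0.08). Under median centring Mrpl15, Mrpl40 and Mrps31 were the 3 members called lower with SQ1, at -0.19, -0.12 and -0.11.

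Mrpl40, a protein of the central protuberance whose human gene lies in the region deleted in DiGeorge syndrome, fell by 0.24 ± 0.03 with SQ1 (adjusted p = 9.0e-06). It was below 0 on 7 of 8 arrays, from -0.40 to 0.06. With pravastatin it measured -0.09 ± 0.03 (adjusted p = 0.053) and was called with the replicate number as a block. Its other probe was called lower with both drugs, at -0.29 with SQ1 and -0.17 with pravastatin. Mrpl57 and Mrpl50, large subunit proteins without bacterial counterparts, measured -0.15 ± 0.02 and -0.13 ± 0.02 with SQ1 (adjusted p = 1.3e-05 and 4.4e-05), and under median centring 0.01 and -0.02 with no call. With pravastatin they measured -0.12 ± 0.02 and -0.14 ± 0.02 (adjusted p = 0.00042 and 7.4e-05), and under median centring -0.04 and -0.09 with no call. The other probe of Mrpl50 measured -0.03 with SQ1, without a call, and -0.08 with pravastatin, with one.

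The stalk recruits translation factors to the large subunit. Mrpl10, its anchor, had 2 probes that were called in opposite directions with SQ1, at -0.20 for the brighter probe and 0.09 for the other. The brighter probe measured -0.04 within the first scan day and -0.36 within the second, and -0.02 without a call under median centring. The stalk base protein mrpl11 rose by 0.16 ± 0.03 with SQ1 (adjusted p = 7.1e-05) and measured 0.05 ± 0.03 with pravastatin. Mrpl12, which forms the stalk itself and is also known to bind the mitochondrial RNA polymerase, measured -0.01 ± 0.03 with SQ1 and -0.11 ± 0.03 with pravastatin (adjusted p = 0.78 and 0.0022). Median centring turned the SQ1 value of Mrpl12 to 0.13 with a call, and the pravastatin value was -0.05 without a call. Mrpl12 was below 0 on 8 of 8 pravastatin arrays, from -0.15 to -0.07.

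Mrpl35 was the other member whose 2 probes were called in opposite directions with SQ1, at 0.10 for the brighter probe and -0.23 for the other. Of the 11 members with 2 probes, the calls of the probes differed in 5 with SQ1 and in 3 with pravastatin. No opposite calls were made with pravastatin.

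SQ1 minus pravastatin was called in 27 members, with 17 higher and 10 lower with SQ1, where 38.1% of all genes were called (18.5% higher and 19.5% lower). The fit treated the arrays of both drugs as independent, and with the replicate number as a block 34 members were called. The share of all genes called with that block is not given here. Median centring gave 14 higher and 0 lower (16.7% and 13.1% of all genes), Agilent's processed signals 19 and 4 (20% and 19.2%), and scaling to 1 spread 3 and 1 (9.48% and 8.79%). The 2 drugs were given at different doses and each of the 4 slides held 1 drug, so drug, dose and slide cannot be told apart in this difference. Mrpl38 was higher with SQ1 than with pravastatin by 0.38 ± 0.05 (adjusted p = 5.4e-06) and Mrps18a by 0.35 ± 0.04 (adjusted p = 2.7e-06). Mrps22 was higher by 0.30 ± 0.04, Mrps18b by 0.26 ± 0.06, mrpl9 by 0.22 ± 0.05 and Mrpl14, a protein of the interface between the subunits, by 0.19 ± 0.05 (adjusted p from 2.3e-05 to 0.0055). All 6 were higher with SQ1 in 8 of 8 same-numbered pairs of arrays, and 4 of them, Mrps22, Mrps18b, mrpl9 and Mrpl14, were not called after scaling to 1 spread.

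Of the 10 members lower with SQ1 than with pravastatin, 8 were of the large subunit and 2 of the small, where 47 of all 69 members are of the large. The 6 with the largest values were all of the large subunit. Mrpl48 differed by -0.18 ± 0.04 (adjusted p = 0.0026), with -0.09 with SQ1 and 0.10 with pravastatin. Mrpl23 differed by -0.16 ± 0.04 (adjusted p = 0.0017) and Mrpl40 by -0.15 ± 0.05 (adjusted p = 0.023). The other probe of Mrpl40 differed by -0.12 and was not called. Mrpl20, Mrpl32 and Mrpl13 differed by -0.14, -0.13 and -0.11 (adjusted p = 0.0018, 0.0028 and 0.015). None of these 6 was called under median centring, where their differences ran from -0.13 to -0.05. With SQ1, Mrpl48, Mrpl20, Mrpl32 and Mrpl13 were called lower under loess, at -0.09, -0.07, -0.11 and -0.06, and measured 0.02, 0.08, 0.01 and 0.03 without a call under median centring.

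Single arrays carried these small changes unevenly. With SQ1, 26 members had the same sign on 8 of 8 arrays (37.7%, 18 higher and 8 lower), where 42.4% of all genes did. With pravastatin, 13 members did so (18.8%, 9 higher and 4 lower), where 22.5% of all genes did. The median of the 69 members on single arrays ran from -0.05 to 0.08 with SQ1 and from -0.03 to 0.10 with pravastatin. Single-array values include the effect of the dye, which the fit takes out.

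**Figure D4:**
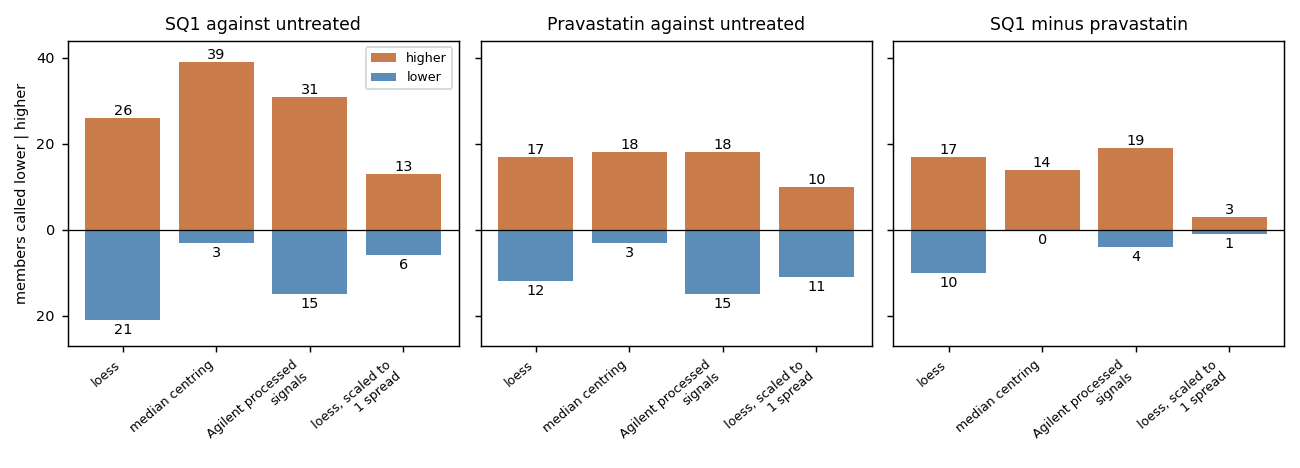
Number of the 69 members called higher (above 0) and lower (below 0) under 4 ways of scaling the arrays (x axis), for SQ1, pravastatin and their difference. With SQ1 the bars are 26 higher and 21 lower under loess, against 39 and 3 under median centring.

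The other parts of the mitochondrial translation system were read from lists of genes. Each count of this list and those below stands beside 32.7% of all genes higher and 31.2% lower with SQ1. With pravastatin the shares of all genes were 19.4% and 19.7%. Under median centring they were 32.7% and 25.4% with SQ1, and 16.7% and 15.6% with pravastatin. No list was tested as a whole. A list of 6 genes with other symbols, which are or were once counted as mitochondrial ribosomal proteins, held 1 that rose and 3 that fell with SQ1, and 1 that rose and 1 that fell with pravastatin. Median centring gave 3 higher and 0 lower with SQ1, and 2 and 0 with pravastatin. Kgd4, once called Mrps36 and now known as a subunit of the 2-oxoglutarate dehydrogenase complex, measured -0.12 ± 0.02 with SQ1 (-0.01 without a call under median centring) and rose by 0.13 ± 0.02 with pravastatin. It was thus 1 of the 3 lower with SQ1 and the 1 higher with pravastatin. Gadd45gip1, a large subunit protein, measured -0.10 ± 0.03 with SQ1 and -0.16 ± 0.03 with pravastatin, and neither was called under median centring. Aurkaip1, a small subunit protein, rose by 0.09 ± 0.02 with SQ1.

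Assembly factors moved in both directions too. Of 22 tested, 11 rose and 4 fell with SQ1, and 3 rose and 4 fell with pravastatin. Median centring gave 10 and 2 with SQ1, and 4 and 3 with pravastatin. Nsun4, which methylates the small ribosomal RNA and takes part in joining the subunits, had a signal of 10.53, 10.58 and 10.83 in SQ1-treated cells, against 9.94, 10.04 and 10.26 in untreated cells, without overlap. It rose by 0.56 ± 0.04 with SQ1 (adjusted p = 3.9e-10) and by 0.35 ± 0.04 with pravastatin (adjusted p = 1.1e-06). Its partner Mterf4 fell by 0.29 ± 0.03 and by 0.26 ± 0.03 (adjusted p = 4.4e-07 and 9.1e-06), and was below 0 on 8 of 8 arrays of each drug. Fastkd2, an RNA-binding protein needed for the large ribosomal RNA, rose by 0.49 ± 0.04 with SQ1 (adjusted p = 9.8e-10) and by 0.14 ± 0.04 with pravastatin (adjusted p = 0.0037). Rpusd3, a pseudouridine synthase, fell by 0.22 ± 0.03 and by 0.12 ± 0.03 (adjusted p = 4.4e-06 and 0.0029).

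Of 13 translation factors, 4 rose and 0 fell with SQ1, and 1 rose and 2 fell with pravastatin. Median centring gave 9 higher and 0 lower with SQ1, and 1 and 1 with pravastatin. Oxa1l, which inserts new proteins into the inner membrane, rose by 0.36 ± 0.03 and by 0.16 ± 0.03 (adjusted p = 1.2e-08 and 0.00067). Taco1, the translational activator of a cytochrome c oxidase subunit, rose by 0.29 ± 0.04 with SQ1 (adjusted p = 3.0e-06) and measured -0.03 ± 0.04 with pravastatin. The elongation factor Tufm measured 0.01 with SQ1 and -0.07 with pravastatin (adjusted p = 0.61 and 0.015). Mtrfr, a ribosome rescue factor, measured -0.12 ± 0.04 with pravastatin (adjusted p = 0.043), which was not called with the replicate number as a block.

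Of 16 mitochondrial aminoacyl-tRNA synthetases and related enzymes, 11 rose and 2 fell with SQ1 (6 and 1 after scaling to 1 spread), and 2 rose and 2 fell with pravastatin (2 and 0 under median centring, 2 and 3 after scaling to 1 spread). Tars2 rose by 0.27 ± 0.03 with SQ1 and by 0.20 ± 0.03 with pravastatin (adjusted p = 8.2e-08 and 1.7e-05). Hars2 rose by 0.26 ± 0.04 with SQ1 and measured 0.08 ± 0.04 with pravastatin. Gatc, a subunit of the enzyme that makes glutaminyl-tRNA, fell by 0.19 ± 0.03 with SQ1, and Cars2 fell by 0.18 ± 0.06, with -0.04 within the first scan day and -0.33 within the second.

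Of 16 genes of mitochondrial DNA transcription and replication, 5 rose and 8 fell with SQ1, against 4 and 1 under median centring. With pravastatin 2 rose and 7 fell, against 2 and 4 under median centring. Agilent's processed signals gave 6 and 4 with SQ1. Polg2, the accessory subunit of the mitochondrial DNA polymerase, had the largest change of all the lists of mitochondrial translation and mitochondrial DNA genes: its signal was 9.93, 10.04 and 10.36 in SQ1-treated cells, against 11.57, 11.71 and 11.76 in untreated cells. On the pravastatin arrays it was 11.09, 11.14 and 11.28 in pravastatin-treated cells, against 11.55, 11.72 and 11.82 in untreated cells. The groups did not overlap with either drug, and Polg2 fell by 1.60 ± 0.04 with SQ1 (adjusted p = 2.3e-16) and by 0.56 ± 0.04 with pravastatin (adjusted p = 2.7e-09). Tfam, which packages mitochondrial DNA and starts its transcription, rose by 0.31 ± 0.03 with SQ1 (adjusted p = 3.4e-07) and measured 0.05 ± 0.03 with pravastatin. Hsd17b10, a subunit of the mitochondrial RNase P, fell by 0.24 ± 0.04 and by 0.19 ± 0.04 (adjusted p = 9.4e-05 and 0.0020), the SQ1 value being -0.07 without a call under median centring. Top1mt, the mitochondrial topoisomerase, rose by 0.16 ± 0.03 and by 0.20 ± 0.03.

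Of 10 regulators of genes for mitochondrial proteins, 5 rose and 4 fell with SQ1, and 0 rose and 4 fell with pravastatin, against 1 and 4 with Agilent's processed signals. Esrra, a nuclear receptor of respiratory genes, rose by 0.20 ± 0.03 with SQ1 and fell by 0.17 ± 0.03 with pravastatin (adjusted p = 3.2e-05 and 0.00043). The difference between the drugs in Esrra was 0.37 ± 0.05 (adjusted p = 4.5e-06). Nrf1, whose protein binds the NRF1 letters above, rose by 0.18 ± 0.05 with SQ1 (adjusted p = 0.0024). Gabpb1, a subunit of an ETS factor of mitochondrial genes, fell by 0.31 ± 0.03 and by 0.19 ± 0.03 (adjusted p = 1.6e-08 and 2.8e-05). Ppargc1b, a coactivator, fell by 0.36 ± 0.10 and by 0.28 ± 0.10 (adjusted p = 0.0031 and 0.029), the pravastatin call being lost without any 1 of 6 of the 8 pravastatin arrays.

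Cytosolic ribosomal proteins and oxidative phosphorylation subunits were set beside the members. Of 78 cytosolic ribosomal protein genes, 43 rose and 4 fell with SQ1 and 38 rose and 2 fell with pravastatin, with a median change of 0.09 with each drug. Median centring gave 74 and 1 with SQ1 and 52 and 0 with pravastatin, with medians of 0.29 and 0.18. Scaling to 1 spread gave 16 and 1 with SQ1 and 23 and 1 with pravastatin, with medians of 0.07 and 0.014. Of 72 nuclear genes for oxidative phosphorylation subunits, 3 rose and 56 fell with SQ1 and 3 rose and 42 fell with pravastatin, with medians of -0.19 and -0.09. Under median centring the oxidative phosphorylation counts were 11 higher and 24 lower with SQ1, and 9 and 16 with pravastatin. The member median of 0.02 lay between these lists with each drug under loess, but with pravastatin after scaling to 1 spread it was 0.077 and lay above both. The lists were not tested against each other.

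**Figure D5:**
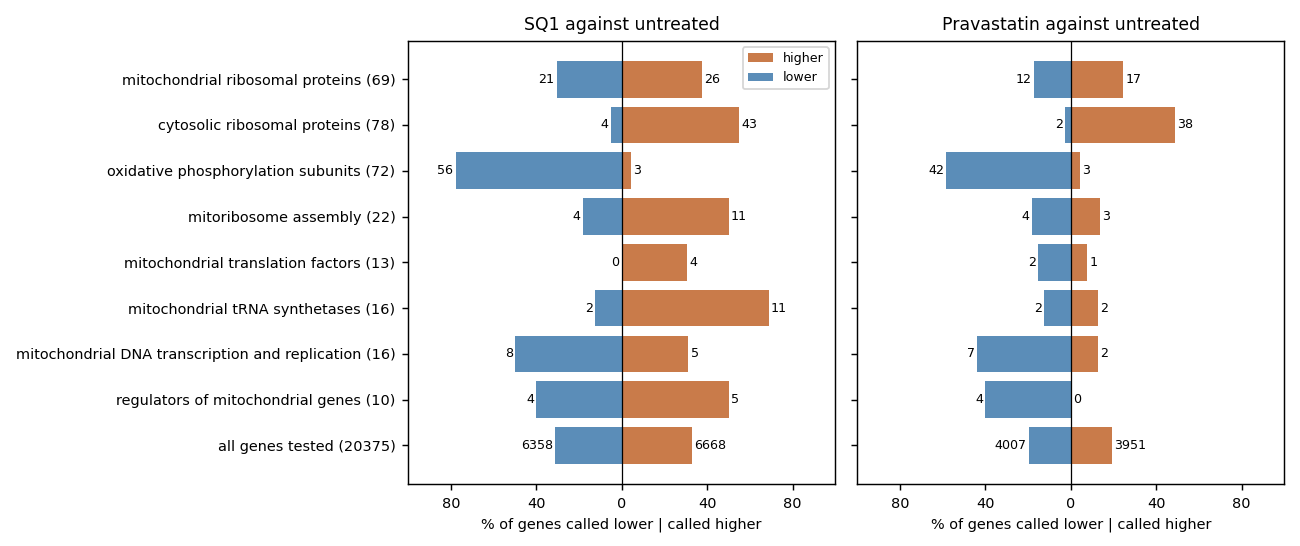
Share of genes called higher (right of 0) and lower (left of 0) in percent (x axis) for the members, for lists of related genes and for all genes tested (y axis, number tested in brackets), with SQ1 on the left and pravastatin on the right. Numbers at the bars are counts; the members show 26 higher and 21 lower with SQ1, while oxidative phosphorylation subunits show 3 higher and 56 lower.

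The cell type was checked by its markers. All 10 hepatocyte markers stood well above background in all channels, 10 of 10 fell with SQ1 (4 after scaling to 1 spread), and with pravastatin 2 rose and 7 fell (1 and 4). Their summed signal was 804231 to 1308150 in SQ1-treated cells, against 1276430 to 1823440 in untreated cells. It was 1143560 to 1550290 in pravastatin-treated cells, against 1063140 to 1723150 in untreated cells. The markers of other cell types that were tested were above background in all channels too, apart from Cftr, a cholangiocyte gene, which was so in 14. The endothelial markers Stab2 and Clec4g and the cholangiocyte marker Sox9 were not tested. All 10 macrophage markers fell with each drug (4 with SQ1 after scaling to 1 spread), and their summed signal was 28673 to 44256 in SQ1-treated cells, against 38169 to 70676 in untreated cells. It was 24325 to 33131 in pravastatin-treated cells, against 41842 to 64377 in untreated cells. Of 7 stellate cell and fibroblast markers, 7 fell with SQ1 (17988 to 26137 summed in SQ1-treated cells, against 33846 to 37128 in untreated cells) and 3 with pravastatin (1 higher and 4 lower after scaling to 1 spread). Of 4 endothelial markers tested, 3 fell with SQ1 and 1 with pravastatin, and of 4 cholangiocyte markers tested, 1 rose and 1 fell with SQ1 (1 and 0 after scaling to 1 spread) and 2 rose with pravastatin. The summed cholangiocyte signal was 28635 to 34374 in SQ1-treated cells, against 19116 to 23725 in untreated cells. The groups did not overlap, with the SQ1-treated cells higher. The 4 single markers did not rise together: their changes with SQ1 ran from -0.15 to 0.57 with a median of 0.02. On the pravastatin arrays the sum was 22742 to 32106 in pravastatin-treated cells, against 18279 to 24476 in untreated cells, with overlap. The part of other cell types in the changes of the members was not tested, and fewer cells of a type cannot be told apart from less RNA per cell.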

How the data were processed

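RNA of treated and untreated rat hepatocytes was hybridised on 16 two-colour Agilent arrays. Per the file headers, the authors extracted spots with Agilent Feature Extraction 10.7.1.1. The deposited scanner files give each spot's median signal and median background as intensity, and the ratio of processed signals as log10 of red over green, per the file headers. The deposited value table holds log2 treated over untreated, and each of its columns matched the array of equal number from the other drug (r from 0.938 to 1.00, against 0.422 to 0.562 with the array of its own label). Drug names here follow the sample labels and the scanner files, and the table served only as an alternative. Per the file headers the array design uses build rn4, and coordinates printed here come only from RefSeq on GRCr8.

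Median signals were background-corrected in limma 3.58.1 (R 4.3.3, statmod 1.5.0) by normexp with offset 50 and normalised by loess within arrays, control spots having weight 0. Of 44254 spots, 1377 were controls and the rest held 30367 probes, of which 17998 were named through RefSeq accessions. Saturation affected no spot, and non-uniform spots, up to 27 per array, were dropped. Median signals were 588 to 663 over a background of 306 to 315 in the A555 channel and 790 to 1076 over 339 to 348 in the A647 channel. The number of arrays limits the precision. The brightest probe stood for a gene. A linear model with a term per drug and a dye term was fitted over all 16 arrays, with moderated variances and two-sided tests, adjusted by Benjamini-Hochberg over 20375 genes. The test was checked on simulated data.

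Scanner file names give same-numbered arrays of both drugs the same control number, and their residuals correlated at 0.138 to 0.629. Numbers 2, 7 and 8 had a differently numbered array with a higher correlation (0.364, 0.391 and 0.327). The numbers were used to pair arrays only in counts of same-numbered pairs and in the replicate block, whose correlation was 0.394. The main fit had no pairing term, so its test of the difference between the drugs treated all arrays as independent. The alternatives tried were other scalings, filters and probe rules, replicate, slide and scan-day terms, no dye term and leaving out each array. The members and the gene lists were chosen with earlier results of these data known. Promoter motifs were searched as cores of at most 7 letters, chosen after longer forms had been tried. Values are printed for the 6 called members with the largest change each way in each comparison. They are also printed for the stalk proteins, Mrps12 and members with opposite probes. The rest are up to 2 called genes each way of each pathway list, Sars2 and neighbours of the members so named. Mrps11 with Mrpl46, a pair of members that face each other, was added after its values were seen. So were the pairs Mrpl2 with Klc4 and Mrpl41 with Pnpla7.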

Additional observations from a re-analysis of the deposited data

Results flagged for a closer look

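For the named genes, 116 sets of 8 single-array values were searched for an array far from the other 7 (Dixon's test at 0.526), and 4 were found, where chance gives about 1 in 20. With SQ1, Mrps31 measured -0.369 on the array of replicate 2, against -0.201 on the nearest other array. With SQ1, Ppp1r10 measured -0.887 on the array of replicate 1, against -0.598 on the nearest. With pravastatin, Taco1 measured -0.334 on the array of replicate 2, against -0.0836 on the nearest. With pravastatin, Tfam measured 0.332 on the array of replicate 1, against 0.104 on the nearest. No cause of these values was tested.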

How the results depend on the processing

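The counts of members called with SQ1, with pravastatin and in their difference were 47, 29 and 27. Without single arrays they ran from 41 to 48, from 20 to 30 and from 21 to 27; those called higher ran from 24 to 29, from 11 to 17 (11 without pravastatin replicate 7) and from 13 to 17, and those called lower from 16 to 21, from 9 to 13 and from 7 to 12. Without single arrays the median change ran from 0.01 to 0.03 with SQ1 and from 0.02 to 0.04 with pravastatin. Median centring gave a median of 0.13 and 3 lower with SQ1, 3 lower with pravastatin, and 14 called, 0 of them lower, in the difference. Scaling to 1 spread gave 19 called with SQ1 (13 higher, 6 lower), 10 higher and a median of 0.077 with pravastatin, and 4 called in the difference (3 higher, 1 lower). Agilent's processed signals and the deposited table gave 4 lower in the difference, and the fit with no dye term gave 6. With the slide as a random block 10 were lower with SQ1, 17 were called (9 higher) with pravastatin, and 12 were called in the difference (8 higher, 4 lower). Each scan day held 4 arrays per drug. Within scan day 1, 31 were called with SQ1 (11 lower), 10 with pravastatin (6 higher, 4 lower) and 8 in the difference (5 higher, 3 lower). Within scan day 2, 5 were lower in the difference. The random replicate block gave 49, 32 and 34 called, and among the values of named genes it ended 1 call (Mtrfr with pravastatin) and added 8. Shares of all genes are not given for the blocks, single scan days, left-out arrays, the deposited table or the fit with no dye term. Whether the counts of members under those settings moved apart from the calls over all genes was not tested. Among the genes chosen for naming, directions turned under median centring for Mrpl57 (0.013), Mrps21 (0.041), Mrpl48 (0.018), Mrpl20 (0.076), Mrpl32 (0.014), Mrpl13 (0.032) and Mrpl12 (0.13) with SQ1. In the difference they turned under scaling to 1 spread for Mrpl55 (-0.034), mrpl11 (-0.000725), Nsun4 (-0.026) and Gabpb1 (0.067). Mrpl35 with SQ1 was -0.065 with its probes averaged and -0.0040 within scan day 1. The cause of these shifts was not tested. The brightest probe of each member was well above background in all channels. Second probes of members had only to pass the filter of 6 of 32 channels.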
